A study of Saccharomyces cerevisiae with 4 samples.

Results

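Autophagy genes of Saccharomyces cerevisiae, taken as all genes whose symbol is ATG followed by a number, were read out in ribosome-bound and ribosome-poor RNA of cells under endoplasmic reticulum (ER) stress. The array's gene table holds 36 such genes among 5656 genes that have a probe set of their own, and 39 of the 9335 probe sets of the array belong to them. A probe set was used only where it names 1 gene, and 0 probe sets name an ATG gene together with another gene.

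Autophagy wraps cytoplasm, or chosen cargo such as mitochondria or ER, in a double membrane that fuses with the vacuole, where the content is broken down. The Atg1 kinase starts the process, vesicles carrying Atg9 and a lipid transfer protein supply membrane, and ubiquitin-like conjugation systems attach Atg8 to the lipid of the growing membrane. Yeast cells under ER stress are known to use autophagy, and receptors for ER pieces are among its cargo receptors.

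Cells of strain BY4741, of mating type a, were labelled in all groups with the genotype his3Δ1, leu2Δ0, met5Δ0 and ura3Δ0. Cultures in rich medium, kept at 30 °C, were taken at an OD600 of 0.5 and received dithiothreitol (DTT), a reductant that blocks disulphide bonds in the ER, at 2 mM for 1 h, or water. Ribosomes were held on their transcripts with cycloheximide at 0.1 mg/mL, and sucrose gradients parted polysomal RNA, which carries many ribosomes, from sub-polysomal RNA, which carries few or none. The 4 groups were DTT polysomal, DTT sub-polysomal, control polysomal and control sub-polysomal RNA, with 1 array each (n = 1) of RNA pooled from 3 extracts. The gradient and lysis buffers held 0.5 mM DTT in both treatments.

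No group has a second array, so differences were not tested, and the number of arrays limits the precision of every value. The error at hand is how far probe sets of 1 gene differ, over 161 genes with several probe sets. Its SD (log2) was 0.41 for DTT over control in polysomal RNA and 0.45 in sub-polysomal RNA. For polysomal over sub-polysomal RNA it was 0.32 in DTT-treated and 0.41 in control cells, and 0.43 for DTT minus control of this ratio. That spread covers probe sets on the same arrays, not cultures or extracts. Wash module and scan also differed for every array, so the run of an array and its group cannot be told apart.

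The control sub-polysomal array stood apart. Its rank correlation with the other arrays was between 0.885 and 0.920, against 0.922 to 0.959 among those. For the actin gene ACT1, the probe set at the 3' end was 1.48 and 1.91 times as bright as that at the 5' end in polysomal and sub-polysomal RNA of DTT-treated cells, against 1.52 and 2.49 times in those of control cells. The part of these differences in the results was not tested. Intensities of that array do not enter DTT over control in polysomal RNA, nor polysomal over sub-polysomal RNA in DTT-treated cells. It still bears on both, since probe sets had to pass the floor on all arrays to be used and to set the centring. The a-type genes MFA1, MFA2 and STE2 were above the floor defined below on all arrays, while the alpha-type genes STE3 and MF(ALPHA)2 were above it on 0 arrays and MF(ALPHA)1 on 1, control polysomal, at 18.4. LEU2 and URA3 were below it on all arrays. HIS3, of which his3Δ1 lacks a part, was above it on all arrays, with values from 160.2 to 207.8 for 1 probe set and from 40 to 53.1 for the other, and whether those probes lie in the deleted part was not tested. MET5, listed as deleted in the labels, was above the floor on all arrays, between 96.7 and 184.5. Its values thus do not bear out the met5Δ0 of the labels. MET17, another gene of sulphur metabolism, was below the floor on all arrays, between 0.4 and 7.1. The ER chaperone gene KAR2 read 2286.5 and 2068.2 in polysomal and sub-polysomal RNA with DTT, against 1321.2 and 1017.8 without it.

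Many autophagy transcripts lay low on these arrays. A floor was set at each array's 40th percentile over all probe sets, at an intensity of 15.9 in DTT polysomal, 22.6 in DTT sub-polysomal, 17.6 in control polysomal and 28.2 in control sub-polysomal RNA. Of the 36 genes, 24 lay above it in DTT polysomal, 25 in DTT sub-polysomal, 22 in control polysomal and 25 in control sub-polysomal RNA. These are shares of 66.7%, 69.4%, 61.1% and 69.4%, against 79.5%, 79.0%, 79.2% and 77.8% of all 5656 genes in that order. On all 4 arrays 20 of the 36 lay above the floor (55.6%, against 69.4% of all genes), 8 did so on some arrays and 8 on none. Shares of all genes above it on some arrays only, or on none, were not taken, so these counts describe the members alone.

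**Figure D1:**
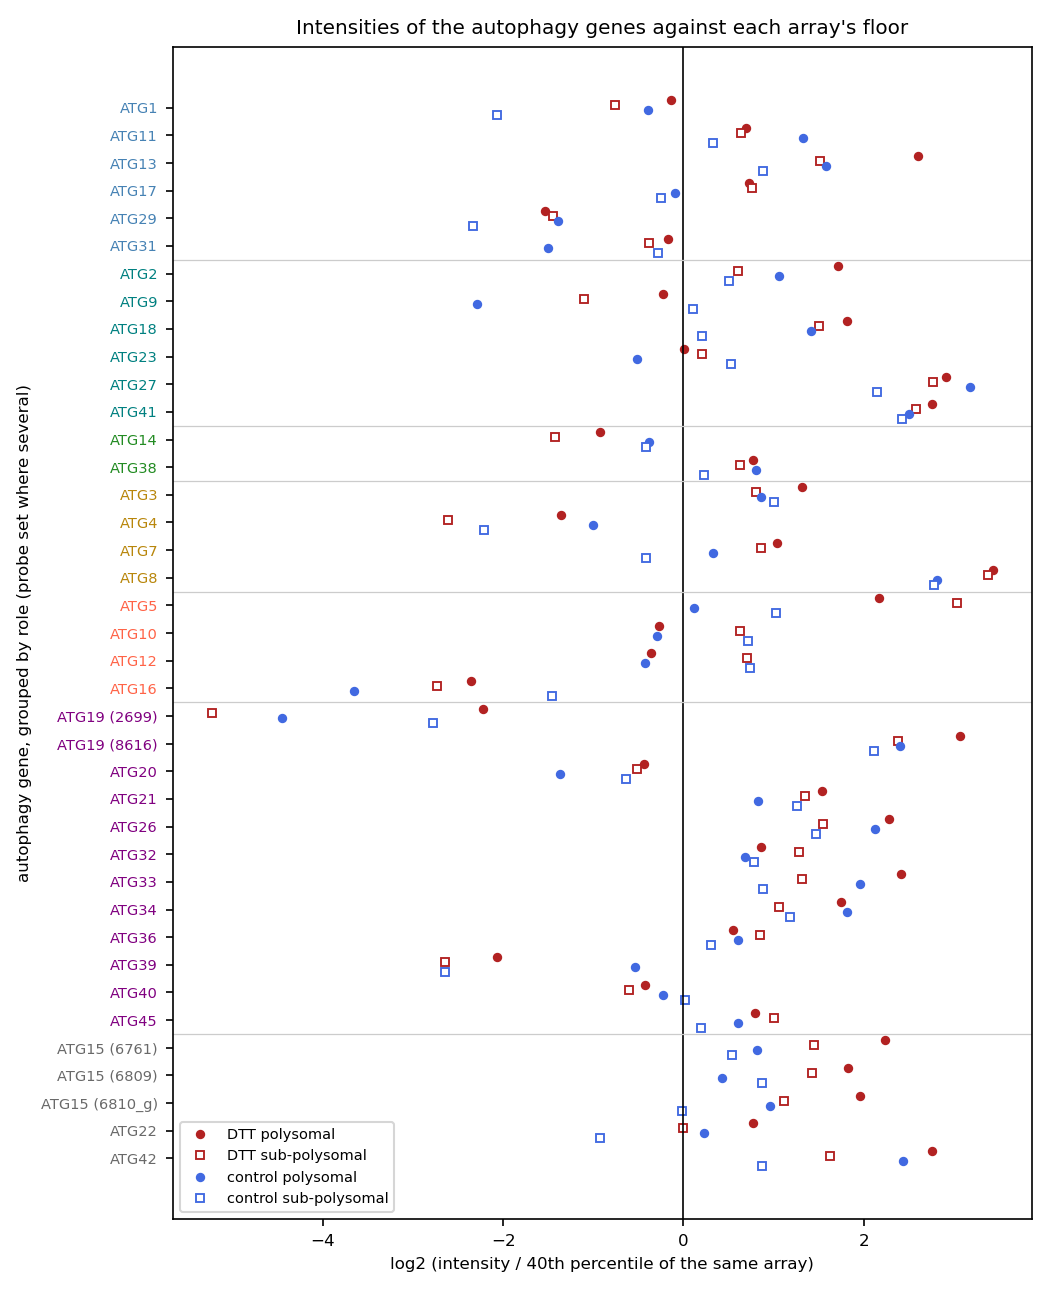
Log2 of intensity over the floor of the same array (horizontal axis) for each of the 39 probe sets of the 36 autophagy genes, grouped by role, with 1 point per array and no error bars. Red marks DTT, blue control, filled circles polysomal and open squares sub-polysomal RNA. Points left of the vertical line at 0 are below the floor, as all 4 points are for ATG1, ATG4, ATG14, ATG16, ATG20, ATG29, ATG31 and ATG39.

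Several early steps of the pathway lay below the floor. Of the 6 genes of the Atg1 kinase complex and its scaffolds, 2 were above the floor on all arrays and 3 on none. ATG1, for the kinase itself, read 14.5 and 13.4 in polysomal and sub-polysomal RNA of DTT-treated cells, against 13.4 and 6.7 in the same fractions of control cells. All of these lie below the floors, so no ratio was taken. ATG29 and ATG31, for partners of the scaffold Atg17, were also below the floor on every array. ATG14, which directs the phosphatidylinositol 3-kinase to autophagy, ATG4, the protease that trims Atg8, ATG16, the partner of the Atg12 to Atg5 conjugate, ATG20, a sorting nexin, and ATG39, a receptor for the nuclear ER, make up the rest of the 8. Over these 8 genes intensities ranged from 3.1 to 14.5 in DTT polysomal, 3.4 to 17.3 in DTT sub-polysomal, 1.4 to 13.5 in control polysomal and 4.5 to 23.2 in control sub-polysomal RNA. The other ER receptor gene, ATG40, read 11.8 and 14.9 in polysomal and sub-polysomal RNA with DTT, against 15.1 and 28.6 without it, and passed the floor in control sub-polysomal RNA only.

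The comparison of DTT with control asks which transcripts became more or less abundant in each fraction. Changes are given on the log2 scale after the median of the probe sets above the floor on all 4 arrays was taken off each array. Probe sets of 1 gene that passed were averaged. Of the 20 genes that could be compared, ATG5 was at least 2-fold higher with DTT in both fractions and ATG15 in polysomal RNA. In polysomal RNA 2 of 20 were 2-fold higher, against 4.33% of all 3923 measured genes, and 0 were 2-fold lower, against 7.04%. In sub-polysomal RNA 1 of 20 was 2-fold higher, against 5.68%, and 0 were 2-fold lower, against 11.1%. All other measured autophagy genes stayed within 2-fold in both fractions. Values are relative to the median probe set of each array, so a shift shared by all transcripts is not seen.

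ATG5 encodes the protein to which Atg12 is joined, and the joined pair then acts as the enzyme that places Atg8 on lipid. It read 71.8 and 185.4 in polysomal and sub-polysomal RNA of DTT-treated cells, against 19.1 and 57.7 in the same fractions of control cells. Both DTT arrays were thus higher than the control array of the same fraction, and the control polysomal value lay just above its floor. The change was 3.68-fold in polysomal RNA (log2 1.88) and 2.99-fold in sub-polysomal RNA (log2 1.58), each several times the spread between probe sets. ATG5 had place 41 from the top of 3923 genes in polysomal RNA and place 84 in sub-polysomal RNA. At least 2-fold higher in both fractions were 1 of the 20 genes and 2.83% of all genes, and 0 of the 20 were 2-fold lower in both, against 4.61%. ATG5 has 1 probe set, so no second probe set of the gene bears on these values.

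ATG15 encodes the lipase that breaks up autophagic bodies inside the vacuole, and 3 probe sets read it. In polysomal RNA they gave 74.8, 56.5 and 61.8 with DTT, against 31.1, 23.7 and 34.2 in control cells, so that every DTT value lay above every control value. Their log2 changes were 1.24, 1.22 and 0.82. The first and second passed the floor on all arrays and gave a gene value of 1.23 (2.34-fold higher). The remaining probe set missed the floor in control sub-polysomal RNA only, at 27.8 against 28.2. In sub-polysomal RNA the probe sets read 61.7, 60.7 and 49.1 with DTT, against 41.1, 51.6 and 27.8 without it, and the gene value was 0.31, within the spread between probe sets. The other genes for breakdown in the vacuole were ATG22 and ATG42. ATG22, for a vacuolar membrane protein that exports amino acids, read 27.1 and 22.5 in polysomal and sub-polysomal RNA with DTT, against 20.6 and 14.9 without it, and passed the floor in polysomal RNA alone. Its polysomal change was 0.37. ATG42, for a vacuolar carboxypeptidase, had changes of 0.15 and 0.33.

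ATG13 and ATG18 came next. ATG13, the partner of Atg1 that the TOR kinase phosphorylates, read 96.9 and 64.5 in polysomal and sub-polysomal RNA with DTT, against 52.9 and 52.1 without it (log2 0.84 and 0.21). Its difference exceeded the probe set spread in polysomal RNA only. ATG18, which binds phosphatidylinositol 3-phosphate and works with the lipid transfer protein Atg2, read 55.8 and 63.9 with DTT, against 47.0 and 32.6 without it (log2 0.22 and 0.87), and its difference exceeded that spread in sub-polysomal RNA only. At the other end stood ATG11, the scaffold of selective autophagy, with 25.7 and 35.1 with DTT against 44.1 and 35.3 without it. Its polysomal change of -0.81 was the lowest of the 20 genes. Its sub-polysomal change of -0.11 turned positive under quantile and loess scaling and with no floor.

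ATG8, for the ubiquitin-like protein that coats the forming membrane and is often used to follow autophagy, lay far above the floors. It read 171.9 and 235.1 in polysomal and sub-polysomal RNA of DTT-treated cells, against 123.8 and 193.8 in those of control cells. Both DTT values were the higher of their pair, with log2 changes of 0.44 and 0.18 (1.36-fold and 1.13-fold), the polysomal change about as large as the spread between probe sets and the sub-polysomal change smaller. Of the other Atg8 conjugation genes, ATG3, for the enzyme that hands Atg8 to the lipid, had changes of 0.28 and -0.62 in polysomal and sub-polysomal RNA. ATG7, for the enzyme that activates both Atg8 and Atg12, read 32.7 and 41.0 with DTT, against 22.1 and 21.1 without it. Its polysomal change was 1.45-fold, and in sub-polysomal RNA, where the control value was below the floor, it was at least 1.35-fold higher.

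The 8 measured genes grouped as receptors and adaptors of selective autophagy were within 2-fold in both fractions. The group is broad and also holds genes that are not for cargo receptors, such as ATG21 and ATG26. Their changes ranged from -0.24 to 0.52 in polysomal and from -0.55 to 0.38 in sub-polysomal RNA. ATG21, which helps bring Atg8 to the membrane, had the highest polysomal change (0.52, with -0.34 in sub-polysomal RNA), and ATG34, the receptor for alpha-mannosidase, the lowest (-0.24 and -0.55). The polysomal change of ATG34 was 0.01 when arrays were centred on the hybridisation controls. ATG32, the mitochondrial receptor gene, read 28.8 and 55.1 with DTT, against 28.2 and 48.7 without it, and its pairs lay close together. ATG33, also used in mitophagy, had changes of 0.27 and 0.02. ATG36, the peroxisome receptor gene, stood at -0.23 and 0.12, the polysomal value turning to 0.02 with the hybridisation controls, and the glycogen receptor gene ATG45 at 0.02 and 0.38.

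ATG19, the receptor of the cytoplasm to vacuole pathway, is the chromosomal neighbour of ATG34 in the R64 annotation and similar to it in function. Its probe sets did not agree: 1 read between 93.2 and 133.3 and the other between 0.6 and 4.1, below the floor on every array. The brighter one gave changes of 0.49 and -0.15 in polysomal and sub-polysomal RNA. ATG26, for a sterol glucosyltransferase, read 77.1 and 66.0 with DTT, against 77.0 and 78.0 without it (log2 -0.03 and -0.34). Its polysomal change turned positive under 4 of the alternatives.

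The genes for the Atg9 vesicles and for membrane supply had no common direction. ATG2, for the lipid transfer protein, had changes of 0.47 in polysomal and -0.32 in sub-polysomal RNA. ATG27, which helps Atg9 traffic, stood at -0.44 and 0.20, with intensities of 120.0 and 154.3 under DTT against 159.8 and 124.8 in control cells. ATG41, for an Atg9-binding protein, stood at 0.08 and -0.27. ATG23, another factor of Atg9 traffic, read 16.0 and 26.1 with DTT, against 12.3 and 40.8 without it. ATG9 itself, for the membrane protein that scrambles lipids, passed the floor only in control sub-polysomal RNA at 30.4. There the DTT array read 10.5, a bound of at least 1.44-fold lower with DTT. Since ATG9 passed through that control array alone, a lower DTT value follows from the floor. In the phosphatidylinositol 3-kinase complex, the subunit gene ATG38 stood at -0.21 and -0.02. Its polysomal value turned to 0.03 with the hybridisation controls, and its sub-polysomal value turned positive under 6 of the alternatives. ATG17, for the scaffold of starvation autophagy, read 26.4 and 38.2 with DTT, against 16.5 and 23.8 without it. Both control values were below their floors, which gives bounds of at least 1.47-fold and at least 1.26-fold higher. Since ATG17 passed through the DTT arrays alone, its bounds are a description. The floors alone do not set their direction, as the DTT floors (15.9 and 22.6) lay below the control floors (17.6 and 28.2).

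Over the 20 genes the median change was 0.18 in polysomal and 0.05 in sub-polysomal RNA, beside -0.10 and -0.20 over all 3923 genes. In polysomal RNA 65.0% of the 20 were above 0 and in sub-polysomal RNA 55.0%, against 42.2% and 37.7% of all genes. The polysomal median stayed above 0 under all 9 alternatives of floor, scaling and probe sets, between 0.057 and 0.42. Among these, the choice of probe sets could change ATG15 alone. The sub-polysomal median turned to -0.0030 when the floor was put at the 20th percentile and to -0.23 when it was put at the 60th. In both fractions 8 of the 20 were above 0, against 28.7% of all genes, and 4 were below 0, against 48.8%. Those 4 were ATG11, ATG26, ATG34 and ATG38, and each turned sign in at least 1 fraction under some alternative. The remaining 8 had opposite signs, against 22.5%. Among them ATG32 had a polysomal change so close to 0 (-0.00020) that its sign turned under 6 of the alternatives. The polysomal change of ATG36 turned sign with the hybridisation controls. These medians cover the genes that passed the floor, not all 36.

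**Figure D2:**
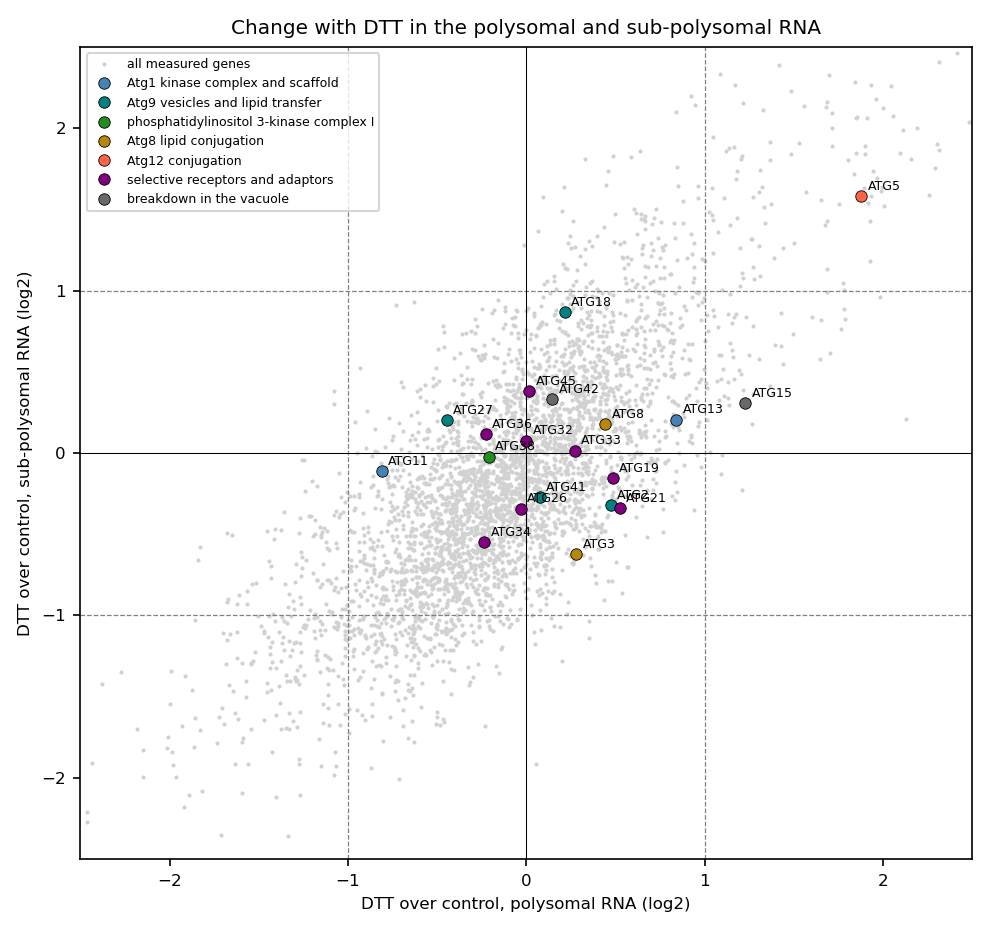
Log2 of DTT over control in polysomal RNA (horizontal) and sub-polysomal RNA (vertical) for the 20 autophagy genes above the floor on all arrays, coloured by role, over all 3923 measured genes in grey, 20 of which lie outside the axes. Dashed lines mark 2-fold. ATG5 lies past 2-fold on both axes (1.88 and 1.58) and ATG15 on the horizontal axis only (1.23 and 0.31).

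The ratio of polysomal to sub-polysomal RNA asks how much of a transcript rode on many ribosomes, relative to the median probe set. ATG5 lay toward the ribosome-poor end in both treatments: its polysomal value was 2.18-fold lower than its sub-polysomal one in DTT-treated cells (log2 -1.13) and 2.69-fold lower in control cells (log2 -1.42). It had place 89 from the bottom of 3923 genes with DTT and place 60 without it. In DTT-treated cells 0 of 20 autophagy genes were 2-fold higher in polysomal RNA, against 4.79% of all genes, and 1 was 2-fold lower, against 3.80%. In control cells 1 was 2-fold higher, against 7.11%, and 1 lower, against 6.50%. At least 2-fold lower in both treatments were 1 of the 20, ATG5, and 2.04% of all genes, and 0 were 2-fold higher in both, against 2.47%. The ratio of ATG5 in DTT-treated cells was -0.78 when arrays were centred on the hybridisation controls and -0.91 with no floor.

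The partners of Atg5 in the same conjugation could not all be compared in this ratio. ATG12, for the ubiquitin-like protein joined to Atg5, read 12.4 in polysomal and 36.9 in sub-polysomal RNA of DTT-treated cells, against 13.1 and 46.9 in control cells. ATG10, for the enzyme that does the joining, read 13.2 and 34.8 with DTT, against 14.4 and 46.3 without it. Both transcripts passed the floor in sub-polysomal RNA and missed it in polysomal RNA, in either treatment. Since they passed through the sub-polysomal arrays alone, a lower polysomal value follows from the floor, and their bounds are given as a description. Set against the polysomal floor, ATG12 was at least 1.96-fold lower in polysomal than in sub-polysomal RNA with DTT and at least 2.37-fold lower without it. For ATG10 the bounds were at least 1.85-fold and at least 2.34-fold lower. ATG7, for the enzyme that activates Atg12, did not share this: its ratio with DTT was -0.08 (32.7 in polysomal and 41.0 in sub-polysomal RNA), and in control cells its polysomal value of 22.1 passed the floor while its sub-polysomal value of 21.1 did not. ATG16, the last member of the system, was below the floor throughout. ATG23 read 12.3 in polysomal RNA of control cells, below the floor, against 40.8 in sub-polysomal RNA, at least 2.06-fold lower. In control cells it passed through the sub-polysomal array alone, so there too a lower polysomal value follows from the floor. With DTT the ratio of ATG23 was -0.46, from a polysomal value of 16.0 that barely passed the floor of 15.9.

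**Figure D3:**
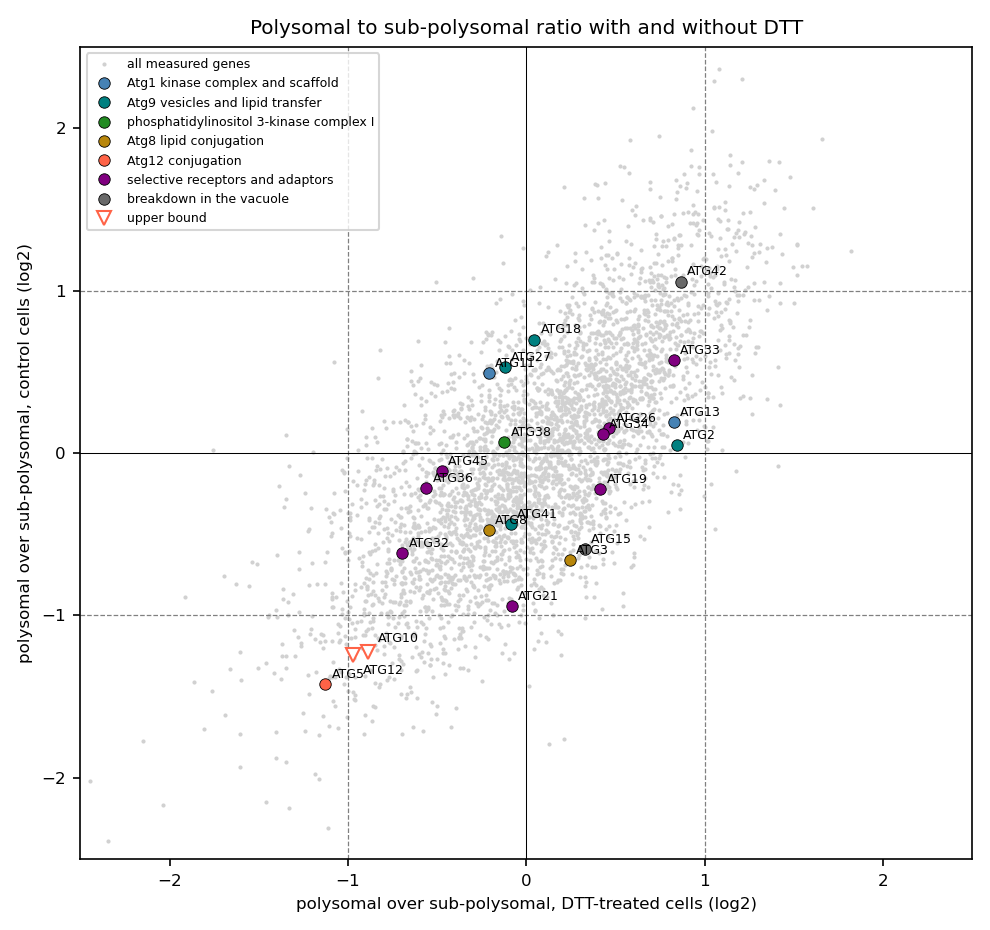
Polysomal over sub-polysomal RNA (log2) in DTT-treated cells (horizontal) and control cells (vertical) for the 20 autophagy genes above the floor on all arrays, over all 3923 measured genes in grey, 6 of which lie outside the axes. Dashed lines mark 2-fold, and open triangles are upper bounds for ATG10 and ATG12, whose polysomal values were below the floor. ATG5 (-1.13 and -1.42) lies at the lower left and ATG42 (0.87 and 1.06) at the upper right. The direction of the bounds follows from the floor.

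ATG42 lay toward the polysomal end. It read 107.9 in polysomal and 69.9 in sub-polysomal RNA of DTT-treated cells, against 95.5 and 51.7 in control cells. The ratios were 0.87 with DTT and 1.06 without it (2.08-fold), and the control ratio was 0.89 without centring. ATG33 had ratios of 0.83 and 0.57 in DTT-treated and control cells. For ATG32, the other mitophagy gene, the polysomal value was the lower one in both treatments (28.8 against 55.1 with DTT and 28.2 against 48.7 without it), with ratios of -0.69 and -0.62.

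As a set the autophagy genes lay near the middle of all genes in this ratio. Of the 20, 10 were above 0 in DTT-treated cells and 10 in control cells. The medians were -0.02 with DTT and -0.03 without it, beside 0.08 and -0.03 over all genes, and these medians changed sign under several scalings. Gene length was set beside the ratio because a longer reading frame has room for more ribosomes. It was taken from start to end of the gene in R64, any intron included, and ran from 354 to 4779 bases over the 20 genes and from 73 to 14733 over all genes. Spearman's rho between gene length and the ratio was 0.44 in DTT-treated and 0.17 in control cells over the 20 genes, and 0.03 and 0.02 over all 3923. The points share arrays and floor, and rho is given as a description. In DTT-treated cells the median ratio was -0.12 for the 9 genes of up to 1000 bases and 0.42 for the 11 longer ones, while all genes split in this way had 0.08 and 0.08. Short genes lay on both sides: ATG5 has 885 bases, while ATG33, with ratios of 0.83 and 0.57 in DTT-treated and control cells, has 594. ATG10 and ATG12, of 504 and 561 bases, are not among the 20, and their low polysomal values follow from the floor.

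The difference of the ratios, DTT minus control, gives the change in polysome association, and every value of it rests on the control sub-polysomal array. At 2-fold 0 of 20 autophagy genes passed in the higher direction, against 1.99% of all genes, and 0 in the lower, against 1.45%. The median was 0.28, beside 0.08 over all genes, and lay between 0.17 and 0.46 under the alternatives. At a lower limit of 1.5-fold, 6 of 20 were higher, against 13.6% of all genes, and 3 were lower, against 9.13%.

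The 6 genes were ATG15 (0.92), ATG3 (0.90), ATG21 (0.86), ATG2 (0.79), ATG19 (0.64) and ATG13 (0.64). ATG3 read 39.6 and 39.5 in polysomal and sub-polysomal RNA of DTT-treated cells, against 31.9 and 56.7 in control cells. ATG21 read 46.0 and 57.5 with DTT, against 31.3 and 67.7 without it, and ATG2 52.2 and 34.4 with DTT, against 36.8 and 40 without it. In each of these 3, and in ATG19 after centring (0.49 and -0.15), the DTT value was the higher one in polysomal RNA and the lower one in sub-polysomal RNA. ATG15 (1.23 and 0.31) and ATG13 (0.84 and 0.21) instead had higher DTT values in both fractions, with the larger difference in polysomal RNA. The probe sets of ATG15 differed widely here, with changes of 0.75, 1.09 and 0.10, the last from the probe set that missed a floor. The 3 genes at the lower end were ATG11 (-0.70), ATG18 (-0.65) and ATG27 (-0.65), which serve selective cargo, the Atg2 partner step and Atg9 traffic. All 9 values exceeded the spread between probe sets, which follows from the 1.5-fold limit that picked them, as it lies above that spread. ATG5, at 0.30, and ATG8, at 0.27, did not exceed it.

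**Figure D4:**
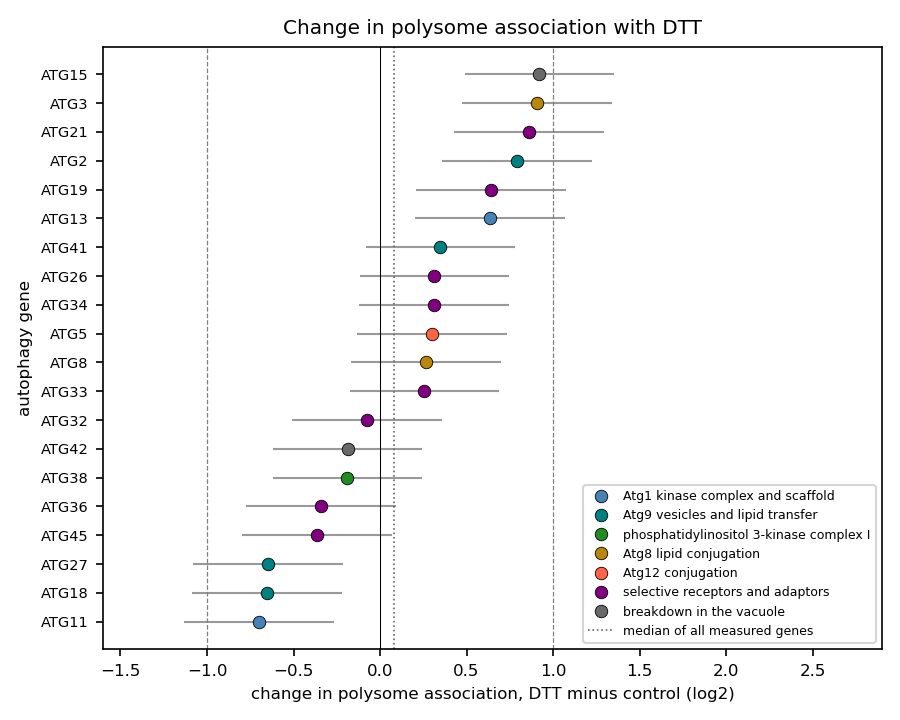
Change in polysome association, DTT minus control (log2, horizontal), for the 20 autophagy genes above the floor on all arrays, ordered by value and coloured by role. Bars show plus and minus 0.43, the SD among probe sets of 1 gene, dashed lines mark 2-fold and the dotted line the median of all measured genes (0.08). No gene passes 2-fold, and values run from -0.70 for ATG11 to 0.92 for ATG15.

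Genes linked to autophagy or to its control that carry no ATG symbol were read from a list of 40. Of these, 31 (77.5%) were above the floor on all arrays, against 69.4% of all genes. The list puts genes of the process together with repressors such as UME6, so its counts and medians describe a mixed set. In polysomal RNA 1 of the 31 was 2-fold higher with DTT, against 4.33% of all genes, and 0 were lower, against 7.04%. In sub-polysomal RNA 1 was higher, against 5.68%, and 2 were lower, against 11.1%. The gene higher in both was PRB1, for the vacuolar protease B that digests delivered cargo, with changes of 1.49 and 2.23 in polysomal and sub-polysomal RNA. The lower ones were YPT7, the vacuolar Rab GTPase (-0.63 and -1.15), and VAM3, the vacuolar fusion SNARE (-0.83 and -1.06). APE1, the aminopeptidase carried to the vacuole by Atg19, stood at 0.24 and 0.95. The genes of the phosphatidylinositol 3-kinase shared with Atg14 were within 2-fold, with VPS30 at -0.30 and -0.10, VPS34 at 0.01 and -0.41 and VPS15 at 0.36 and 0.56. UME6, for a repressor of ATG8, stood at -0.65 and -0.18. The medians of the 31 were 0.01 and 0.04, and for the change in polysome association -0.02.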

How the data were processed

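RNA of 4 groups was measured on 1 Affymetrix YG_S98 array each, per the file headers of the run sheets. The deposited table gives a linear intensity for every probe set, which the authors scaled so that each array's mean after trimming 2% from each end is about 100 (100.0, 100.0, 99.9 and 100.0). How probes were summarised is not given in the sources here. Columns without a sample numbered 0. Of 9335 probe sets 60 are controls, 6504 name 1 gene and 328 several. The 6504 were matched by gene ID to R64 names, and 0 symbols changed. A total of 4720 probe sets that are not controls exceeded each array's 40th percentile on all arrays, giving 3923 genes. Log2 intensities were centred on their median. No p-value was made, since groups have 1 array, and the limit for counts was 2-fold. A value below the floor was replaced by the floor to give a bound. Alternatives changed the floor, the scaling, the choice of probe sets and the fold limit. The steps were tested on simulated data. Python 3.11.15, pandas 2.3.3 and limma 3.58.1 (cyclic loess) were used. Genes planned for full values were those past 2-fold, ATG1 and ATG8, and those with a bound of at least 2-fold. Many other members were also given single values within their role groups, beyond that plan. ATG45 was added to its role group after the files were read. The members and lists were chosen with earlier results of these data known. Promoter motifs were not analysed here.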

Additional observations from a re-analysis of the deposited data

Results flagged for a closer look

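In 8 of the 20 measured autophagy genes the change with DTT had opposite signs in polysomal and sub-polysomal RNA, against 22.5% of all measured genes. The difference, polysomal minus sub-polysomal change (log2), was 0.90 for ATG3, 0.86 for ATG21, 0.79 for ATG2, 0.64 for ATG19, 0.35 for ATG41, -0.076 for ATG32, -0.34 for ATG36 and -0.65 for ATG27. The polysomal change of ATG32 was -0.00020, and its sign turned under 6 of the alternatives. That of ATG36 was -0.23 and turned to 0.02 with the hybridisation controls, so its signs were then no longer opposite. Each difference rests on 1 array per group and was not tested. Those of ATG41, ATG32 and ATG36 were smaller than the SD of 0.43 among probe sets of 1 gene.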

How the results depend on the processing

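All alternatives use the same 4 arrays, so none of them bears on the spread between cultures, and leaving out a replicate was not possible. No paired analysis was possible because each group has 1 array and no result comes from a test. Counts below are at 2-fold unless another limit is named. Shares of all genes past the limit were not taken for the other floors and scalings, nor for 3-fold. At 1.5-fold they were taken for the change in association only. Without that share the counts describe the members alone. The cause of a change was not tested beyond the number of genes that pass each floor. Plain probe sets only and the brightest probe set of a gene moved 0 of the medians and counts. Among the measured autophagy genes only ATG15 had several probe sets above the floor on all arrays, and those are plain. Taking plain probe sets could thus change no member, and taking the brightest could change ATG15 alone.

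With no floor all 36 genes entered, and the polysomal median with DTT was 0.30, with 6 genes higher and 1 lower. In sub-polysomal RNA 4 were higher and 4 lower. The polysomal to sub-polysomal median was 0.15 with DTT (6 higher) and 0.11 in control cells (5 higher, 7 lower). For the change in polysome association 4 genes were higher and 1 lower. With no floor these counts take in very low readings, such as 1.4 and 10.3 for ATG16 in polysomal and sub-polysomal RNA of control cells. With the 20th percentile as floor, the sub-polysomal median with DTT was -0.0030 (1 lower) and the ratio's median in DTT-treated cells was 0.0041 (3 lower). In control cells 6 were lower in the ratio, and rho with gene length was 0.38. For the change in association 3 were higher. With the 60th percentile as floor, 5 genes were left and 0 were past 2-fold in either direction in any comparison. The medians were then 0.057 and -0.23 for DTT in polysomal and sub-polysomal RNA and -0.25 and -0.44 for the ratio in DTT-treated and control cells, and rho with DTT was 0.90.

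Quantile scaling gave medians of 0.19 for DTT in sub-polysomal RNA (2 higher) and of 0.12 and 0.22 for the ratio in DTT-treated and control cells (2 higher in control cells). Under loess scaling these ratio medians were 0.18 (1 higher) and 0.27, and 2 genes were higher with DTT in sub-polysomal RNA. Without centring they were -0.26 and -0.20, with 0 higher and 2 lower in control cells. Centred on the hybridisation controls they were 0.33 (4 higher, 0 lower) and 0.15, the polysomal median with DTT was 0.42, and that of the change in association 0.46 (3 higher). The all-gene median for DTT in polysomal RNA was then 0.14 in place of -0.10.

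At a 1.5-fold limit 1 gene was lower with DTT in polysomal RNA, and 2 were higher and 1 lower in sub-polysomal RNA. For the ratio 4 were higher and 2 lower with DTT and 2 higher and 5 lower in control cells, and for the change in association 6 were higher and 3 lower. At 3-fold 1 gene was higher with DTT in polysomal RNA and 0 in sub-polysomal RNA, and for the ratio 0 were past the limit in either treatment.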
